A study of Mus musculus with 7 samples.

Results

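The Gng13-low pregranulosa cells of the mouse ovary at E16.5 (age in days of embryonic development) numbered 1449, out of 11042 called cells in that library and 52542 in the series. They were chosen by counts of unique molecular identifiers (UMIs, each standing for 1 captured RNA molecule), not by clustering. A cell was taken when it had at least 1000 genes detected, at least 2 UMIs of Foxl2, at most 1 of Gng13, at least 2 of Wnt6 and Kitl together, none of Pax8, at most 1 of Upk3b, and at most 2 of Dazl and Ddx4 together. The label behind these cut-offs is the medullary, or bipotential-derived, pathway of pregranulosa (BPG) cells, with Foxl2, Akr1c14, Nr5a2 and Aard as its markers. The members made up 19.8% (18.9 to 20.8%, exact binomial 95% interval) of the 7306 somatic cells of the library, and 17.5% of its 8284 cells with at least 1000 genes.

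The study profiled dissociated gonads at E11.5 and ovaries of 6 later ages (E12.5 and E14.5, then E16.5 and E18.5, and postnatal days 1 and 5, written P1 and P5) from untreated wild-type C57BL/6J mice, with 1 droplet library at each age. E16.5 ovaries were held in trypsin for 40 min, and their library held 125415948 UMIs with a median of 12526 in cells of at least 1000 genes. The study's text gives several gonads or ovaries for each age, which cannot be told apart in the counts. With 1 library per age there was no replicate, so no test was run; all intervals are 95% and cover counting error only, and dissociation left no record of where in the ovary a cell had been.

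Pregranulosa cells are the somatic supporting cells that surround female germ cells and become the granulosa cells of follicles. Foxl2 is the transcription factor that maintains their ovarian identity, Kitl encodes the ligand of the Kit receptor on oocytes, and Wnt6 is a secreted signal. In the mouse, supporting cells that arise early from bipotential precursors are known to populate medullary follicles of the first wave, whereas those recruited later from the Lgr5-expressing surface epithelium populate the cortical primordial follicles.

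The E16.5 library stood apart from the other 6 in several measures. It shared 9 barcodes with all of them together, 3 of them in members, whereas pairs among the other 6 shared 22 to 136. The transcripts Gm42418 and AY036118, which overlap ribosomal RNA sequence, reached 8689 and 1199 per 1000000 UMIs, against 65.3 to 646 and 10.1 to 215 elsewhere, and mitochondrial genes took 8.72% of UMIs against 3.67 to 6.04%. Within the library the members had 11.8% mitochondrial UMIs, close to the 12.1% of the Gng13-high cells described next and above the 5.54% of stroma. Comparisons inside the library do not cross this difference, but in those with other ages library and age cannot be told apart.

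The members were compared with all 5857 other somatic cells of the library and, more narrowly, with 1416 Gng13-high pregranulosa cells, set by the same cut-offs but with at least 2 Gng13 UMIs and Foxl2 left free. The median member had 11825 UMIs, the median Gng13-high cell 13887. Other cells were placed by marker counts as stroma (1593 cells), surface epithelium (467), Pax8-positive cells (349), erythroid (221), endothelial (164) or immune cells (110), and 1537 stayed unplaced. A level is a gene's UMIs summed over a class and scaled to 1000000 UMIs of that class (CPM), and a ratio divides the level in the members by that in the other cells. The cut-offs on Foxl2 and Gng13 act on the same cells, so each contrast below is a description. Levels serve to compare classes for 1 gene and not genes with each other.

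Of the 3 markers that the cut-offs did not use, all were higher in the members than in both comparison groups. Akr1c14, an aldo-keto reductase that acts on steroids (13:4049011-4090688, plus strand, mm10), stood at 115 CPM (110 to 120) in members, 16.9 CPM (15.2 to 18.8) in Gng13-high cells and 16.49 CPM in all other somatic cells. The ratio was 6.78 (6.05 to 7.62) to Gng13-high cells and 6.96 (6.49 to 7.48) to other somatic cells. Among the classes, Pax8-positive cells came nearest with 80.6 CPM (73.2 to 88.5), and stroma had 1.77 CPM. The 88 cells with 1 Pax8 UMI that met every other cut-off had 130 CPM, above the members. The cut-offs required Foxl2 of members and not of Gng13-high cells. Against the 577 Gng13-high cells that also had at least 2 Foxl2 UMIs, a comparison added after the data were seen, the Akr1c14 ratio was 3.59 (3.16 to 4.08).

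Nr5a2, the nuclear receptor LRH-1 that is required in adult granulosa cells for ovulation (1:136842571-136960448, minus strand), was sparse. It stood at 21.8 CPM (19.7 to 24.1) in members and 1.55 CPM (1.06 to 2.19) in Gng13-high cells, a ratio of 14.04 (9.78 to 20.8). Its level was higher still in endothelial cells, at 31.4 CPM (25.8 to 37.9). Aard, a gene known from Sertoli cells (15:52040107-52045722, plus strand), stood at 241 CPM (234 to 248) in members, 70.5 CPM (66.9 to 74.2) in Gng13-high cells and 75.4 CPM in Pax8-positive cells. Its ratio to Gng13-high cells was 3.42 (3.22 to 3.63). Against the 577 Gng13-high cells with Foxl2 the ratios of Nr5a2 and Aard were 8.98 (5.79 to 14.7) and 2.12 (1.97 to 2.27). Among the classes Aard was highest in the members and graded elsewhere, and Nr5a2 was not.

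The promoter windows of Akr1c14 and Nr5a2 are shown because these genes had the largest ratios to Gng13-high cells among the markers, and Nr5a2 encodes a DNA-binding receptor. They are the 250 bases before the start in RefSeq (GRCm38.p6), chr13:4059341-4059590 on the plus strand and chr1:136960449-136960698 on the minus strand, with any match to 1 of 3 searched motifs in capitals. The RefSeq start used for Akr1c14 differs from the start of the interval given above, so its window lies inside that interval.
Akr1c14: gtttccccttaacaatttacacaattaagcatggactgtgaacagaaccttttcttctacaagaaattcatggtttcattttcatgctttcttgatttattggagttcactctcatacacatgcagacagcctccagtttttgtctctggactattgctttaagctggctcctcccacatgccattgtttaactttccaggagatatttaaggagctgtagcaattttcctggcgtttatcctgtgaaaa
Nr5a2: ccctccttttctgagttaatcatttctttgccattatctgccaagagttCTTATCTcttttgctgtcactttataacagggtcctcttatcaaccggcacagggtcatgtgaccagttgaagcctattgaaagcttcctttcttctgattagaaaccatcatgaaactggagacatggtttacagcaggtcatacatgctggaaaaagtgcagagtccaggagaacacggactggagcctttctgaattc
The motif searched for NR5A receptors was AAGGTCA, that for forkhead factors was GTAAACA, and that for GATA factors was spelled AGATAAG, each on both strands. They occurred in 4.08%, 3.17% and 2.74% of the 32851 mouse windows of this length. The Akr1c14 window held none of these letters, and the Nr5a2 window shown held 1 GATA match on the opposite strand, at -201 from the start. Nr5a2 has another RefSeq window, chr1:136953631-136953880 on the minus strand, which held no match to the 3 motifs and is not shown. Of the 10 leading genes against Gng13-high cells, 7 had a window, and 1 of the 7 held a match, again to GATA, in Stfa1.

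**Figure D1:**
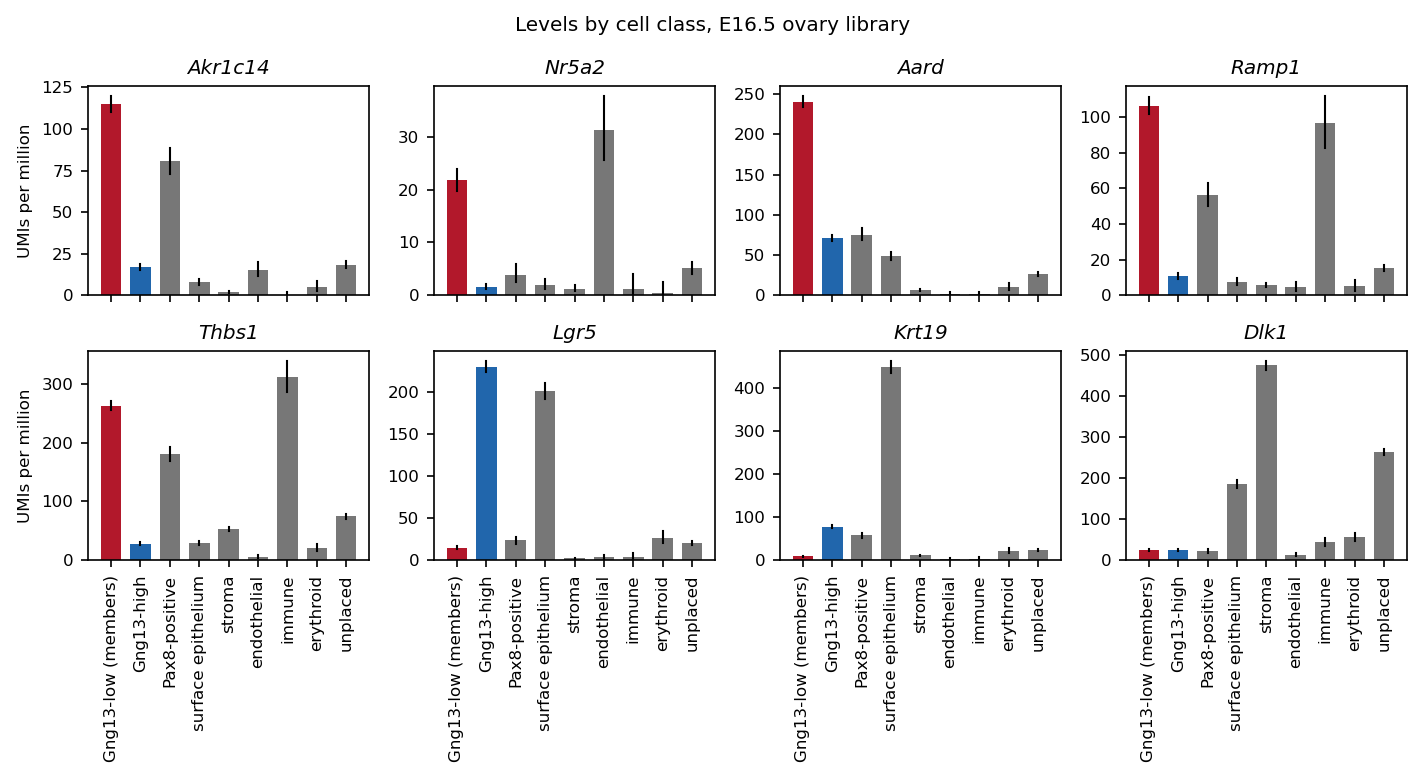
Levels of 8 genes in CPM (vertical axis, linear, from 0) in each cell class of the E16.5 library; bars are summed levels, black lines 95% Poisson intervals, red the Gng13-low members, blue the Gng13-high cells. Akr1c14, Aard and Ramp1 were highest in the members, Thbs1 in immune cells (312 CPM), Nr5a2 in endothelial cells (31.4 CPM), and Lgr5 in Gng13-high cells (231 CPM).

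The markers were spread unevenly over single members. Akr1c14 had at least 1 UMI in 53.8% (51.2 to 56.4%) of members, against 14.6% of Gng13-high cells and 1.70% of stroma, whose median depth was 10161 UMIs. After each cell was thinned to 2000 UMIs, which left out 2 members, 6 Gng13-high cells and 7 stromal cells, the shares for Akr1c14 were 17.9%, 2.41% and 0.315%. Stroma, which was placed partly by its lack of Foxl2, served as the background that free RNA can give. Aard had a UMI in 74.8% of members against 5.96% of stroma (33.7% and 1.39% after thinning), and Nr5a2 in 14.7% against 1.00% (3.59% and 0.252%). All of Akr1c14, Aard and Nr5a2 were seen together in 9.80% of members, and 14.4% (12.6 to 16.3%) had none of them, so at this depth the marker set did not cover every cell that passed the cut-offs.

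Against all other somatic cells, 323 of 9213 genes (3.51%) were at least 2-fold higher in the members and 590 (6.40%) at least 2-fold lower, among genes with a mean of 10 CPM or more. The median ratio of all genes was 1.08. Apart from Akr1c14 and Aard, the leading genes included Shtn1, which encodes a cytoskeletal protein of growing axons, at 140 CPM against 19.3 (ratio 7.25, 6.79 to 7.74). Slc26a7, an anion transporter, stood at 98.0 CPM against 13.8 (ratio 7.13), and Ramp1, a co-receptor for the peptide CGRP, at 107 CPM (ratio 7.11). The transcription factor gene Msx1 was at 64.6 CPM against 12.47 (ratio 5.18), although the Pax8-positive cells alone had 80.4 CPM. Tdrd5, Kazald1 and Cntnap5a were also among the 10 highest, at ratios of 6.31, 5.15 and 5.05.

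The genes lowest in the members were chiefly those of other cell types. Cma1, a mast cell protease, had a ratio of 0.0399, Cdh5 and Kdr of endothelium 0.0669 and 0.0936, Hemgn of erythroid cells 0.0824, and Pdgfrb of mural cells 0.130. Krt19, a keratin of surface epithelium, stood at 8.90 CPM against 84.9 (ratio 0.105). Dlk1, a stromal regulator, was at 24.4 CPM against 196 (ratio 0.125), and stood at 24.9 CPM in Gng13-high cells. In the clusters of members described below, Dlk1 was at 154 CPM in cluster 4 and 3.49 to 5.26 CPM in clusters 1, 2, 3 and 5. The remaining genes of this group, Igfbp3, Mt2 and S100a6, had ratios of 0.0625, 0.114 and 0.122.

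Against Gng13-high cells, the other pregranulosa cells of the library, the members differed in fewer genes: 272 of 8983 (3.03%) were at least 2-fold higher and 188 (2.09%) at least 2-fold lower, with a median ratio of 1.03. Among genes with at least 50 CPM in the higher group, to which the highest and lowest genes named here are limited, the 5 highest ratios belonged to neutrophil genes, Ngp, S100a9, S100a8, Stfa1 and BC100530. Between 98.8% and 99.4% of the UMIs of these genes in the members came from the same 10 cells, those with at least 2 UMIs of the myeloid genes Tyrobp and Fcer1g. Gng13-high cells with such counts had been placed as immune cells, whereas the cut-offs for the members do not look at blood genes. Without the 26 members that met a blood or endothelial condition, the ratios were 3.50 for Ngp, 1.67 for S100a9, 1.07 for BC100530, 0.961 for S100a8 and 0.584 for Stfa1, while Akr1c14 stayed at 6.83, and 256 genes were higher and 185 lower.

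Behind the neutrophil genes came Ramp1 at 107 CPM against 10.7 (ratio 9.98, 8.68 to 11.53) and Thbs1, a secreted matrix glycoprotein, at 263 CPM against 28.0 (ratio 9.40, 8.62 to 10.3). Tdrd5, a Tudor-domain gene known from germ cell granules, was at 64.6 CPM against 10.1 (ratio 6.43). Against the 577 Gng13-high cells with Foxl2 the ratios of Ramp1, Thbs1 and Tdrd5 were 5.62, 5.63 and 3.51, and 164 genes were higher and 137 lower. Ramp1 and Thbs1 were not particular to supporting cells, since immune cells had 96.6 and 312 CPM of them.

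The genes lowest relative to Gng13-high cells included known genes of the epithelial pathway, such as Lgr5 and Calb1, but not only these. Lgr5, the R-spondin receptor that marks it, stood at 14.7 CPM (13.0 to 16.6) in members against 231 CPM (224 to 237), a ratio of 0.0638. Bmp2, a BMP ligand, was at 15.1 CPM against 127 (ratio 0.118), and Krt19 at 8.90 CPM against 77.2 (ratio 0.115). Bmp2 went against the label, since the study names BMP2 among the genes expressed by its BPG cells at E14.5. Calb1, a calcium-binding protein, was at 33.4 CPM against 215 (ratio 0.156), and Igfbp2, which binds insulin-like growth factors, at 25.2 CPM against 145 (ratio 0.174). Svs5, Bace2, Mhrt, Clec2l and Serpini1 had ratios of 0.0515 to 0.182. Against the 577 Gng13-high cells with Foxl2 the ratio of Lgr5 was 0.0953, and those of Bmp2, Krt19 and Igfbp2 were 0.179, 0.177 and 0.421. Lgr5 was also high in the surface epithelium, at 202 CPM, and near the members' level in Pax8-positive cells, at 23.6 CPM.

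**Figure D2:**
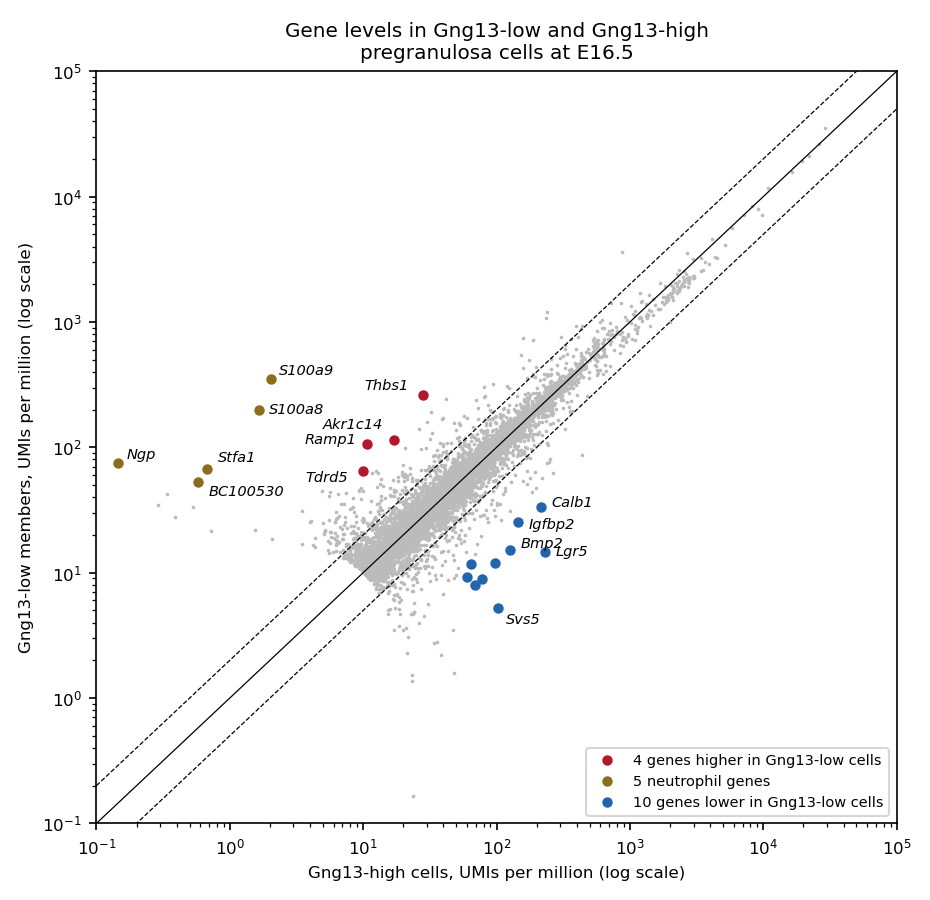
Each grey point is 1 of 8983 genes by its level in Gng13-high cells (horizontal axis) and in Gng13-low members (vertical axis), both in CPM on log scales; the solid line marks equal levels and the dashed lines a 2-fold difference. The 5 neutrophil genes (brown) lie farther above the line of equal levels than the 4 other named higher genes (red), and of the 10 named lower genes (blue) Lgr5 and Svs5 lie farthest below the line.

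Gene lists drawn from the study and from known pathways described these differences by function. Over all genes, 3.51% were at least 2-fold higher and 6.40% lower against other somatic cells. Against Gng13-high cells these shares were 3.03% and 2.09%. The published lists of BPG and EPG genes were chosen on these same libraries, so their direction is not independent evidence. Of 24 BPG genes, 19 were at least 2-fold higher in members than in Gng13-high cells and none lower, with a median ratio of 3.15, and 14 were higher than in the 577 Gng13-high cells with Foxl2 (median 2.09). They included Akr1cl (547 CPM against 151), the fibrillar collagen Col3a1 (717 against 187), Col18a1 (241 against 41.5) and Gja1 (218 against 86.4), the connexin through which granulosa cells couple to one another. Of 23 genes of the epithelial pregranulosa (EPG) list other than Gng13, 18 were at least 2-fold lower (median 0.322), among them Lhx9 at 43.8 CPM against 185. Col3a1 was nonetheless below the other somatic cells as a whole, which had 1238 CPM.

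Of 15 transcription factors of the gonad compared with Gng13-high cells, 3 were at least 2-fold higher (Nr5a2, Sox11 and Sox4) and 1 lower (Lhx9), with a median of 1.19, beside 3.03% and 2.09% of all genes. Nr5a2 reached the minimum mean only through the members, and against the 577 Gng13-high cells with Foxl2, where 16 were compared, 1 was higher and 1 lower. Wt1 (290 against 315 CPM), Gata4 (150 against 145), Gata6 (286 against 239) and Runx1 (246 against 207), which act in supporting cells of both sexes or of the ovary, had ratios between 0.922 and 1.20. Nr5a1, the steroidogenic factor SF-1, was at 40.4 CPM against 60.4. The homeobox gene Irx3 was at 193 CPM against 355 (ratio 0.543), and Sox11 at 138 CPM against 50.1 (ratio 2.76).

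Of 16 genes known from Sertoli cells, 10 did not reach the minimum mean of 10 CPM. The other 6 were at least 2-fold higher in members than in other somatic cells, beside 3.51% of all genes. Against Gng13-high cells 4 of them were, beside 3.03% of all genes, or 3 against the 577 with Foxl2. Ptgds in both comparisons, and Sox9 in the one with Gng13-high cells, reached the minimum only through their level in the members, so these counts are partly set by that limit. Sox9, a transcription factor of testis determination, stood at 39.0 CPM against 9.71 in Gng13-high cells (ratio 4.02), and Ptgds, which makes prostaglandin D, at 32.1 CPM against 7.96 (ratio 4.04). Sox9 was higher still in Pax8-positive cells, at 57.0 CPM. The defining Sertoli genes Dmrt1 and Amh were at 0.165 and 1.48 CPM in the members, below the minimum for comparison. Gstm6, a glutathione transferase, was abundant in both groups, at 613 CPM against 326.

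Metabolic genes divided in the comparison with Gng13-high cells, where 3.03% of all genes were at least 2-fold higher and 2.09% lower. Among 12 steroid and aldo-keto reductase genes, 4 were at least 2-fold higher (Akr1c14, Akr1cl and Hsd17b7 among them) and 1 lower (Star, the cholesterol carrier of mitochondria, at 9.28 CPM against 24.2), with a median of 0.967. Against the 577 Gng13-high cells with Foxl2, 4 of 13 were higher and none lower. The steroidogenic enzymes Cyp11a1, Cyp17a1 and Cyp19a1 stood at 1.15, 2.36 and 0.714 CPM, so these 3 genes were barely detected. Of 20 cholesterol synthesis genes, 5 were at least 2-fold lower and 1 higher, with a median of 0.596. The lower ones included Idi1 (28.7 CPM against 80.1) and Sqle (30.1 against 62.4), which encode enzymes of the pathway, and Insig1, which restrains it (26.9 against 67.9), and Hsd17b7 was the higher one. Against other somatic cells, which include the Gng13-high cells, the median of this list was 1.02. Its genes summed to 980 CPM in members, 1693 in Gng13-high cells and 944 in Pax8-positive cells. In the remaining classes the sum was 388 to 630 CPM, so in summed level the members were below the Gng13-high cells only.

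Signalling genes are given by pathway, and the shares past 2-fold over all genes against Gng13-high cells were 3.03% higher and 2.09% lower. In the Wnt and R-spondin list, Lgr5 was the only one of 18 past 2-fold against Gng13-high cells (median 0.994), and Wnt4, an ovary-promoting signal, was at 454 CPM in members and 453 in Gng13-high cells. Rspo1 was at 73.9 CPM against 115, and Axin2, a target of the pathway, at 113 against 122. In the BMP, activin and AMH list, 1 of 18 was higher and 1 lower (median 1.07): Tgfb2 at 51.1 CPM against 13.4 and Bmp2 as above. Relative to the Gng13-high cells with at least 2 Foxl2 UMIs, 2 of 18 were higher and 1 lower (median 0.982). Against other somatic cells 4 of 19 genes of that list were higher and 4 lower (median 1.01), beside 3.51% and 6.40% of all genes. The higher genes were Inha (83.7 CPM against 25.4), Inhbb, Tgfbr1 and Fst (809 CPM against 258), which encode inhibin and activin subunits, a receptor and the activin-binding follistatin. The lower genes were the ligands Bmp2 (15.1 CPM against 49.4) and Tgfb2 (51.1 against 130), the receptor Tgfbr2 (8.29 against 27.8) and the target Id4 (9.94 against 26.4). Ptch1, the Hedgehog receptor and target, was at 76.1 CPM against 33.9 in other somatic cells and 49.4 in Gng13-high cells.

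No gene of the IGF list was higher than 2-fold, and 2 of 13 were lower than in Gng13-high cells (median 1.12), Igfbp2 and Igf1 (31.1 CPM against 126). None of the 3 compared Notch genes (median 0.826) and none of the 3 compared Hedgehog genes (median 1.17) was past 2-fold against Gng13-high cells. Of 6 retinoid genes 1 was lower (Rdh10, at 13.0 CPM against 27.2; median 0.867), but none of the 6 was past 2-fold against the 577 with Foxl2, and Aldh1a1, which makes retinoic acid, stood at 391 CPM against 573. Among genes of oocyte contact, 2 of 8 were higher (median 1.04), Gja1 and the adhesion molecule Ncam1, at 117 CPM against 31.9; against the 577 Gng13-high cells with Foxl2 1 of 8 was higher (median 0.995), and Gja1 had a ratio of 1.64. The rule gene Kitl was at 1306 CPM in members and 1169 in Gng13-high cells.

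Of all genes, 3.03% were at least 2-fold higher than in Gng13-high cells and 2.09% lower. In the extracellular matrix list 6 of 21 were at least 2-fold higher than in Gng13-high cells and none lower (median 1.40): Thbs1, Col18a1, Col3a1, Mgp, Fbn2 and Mfap2. Against the 577 Gng13-high cells with Foxl2, 4 of 21 were higher (median 1.24). The stromal markers had a median of 1.57 in the same members, and of 8.48 in the cluster richest in called doublets, and their part in the matrix values was not tested. Of 9 keratin and junction genes 5 were lower and 1 higher (median 0.4997), or 4 and 0 against the 577 with Foxl2 (median 0.624); Krt8 was at 64.8 CPM against 168, Krt7 at 3.51 against 47.2, and the higher one was the tight junction gene Tjp1, at 193 against 92.8. Cst8 and Cst12, 2 of 4 cystatins compared (median 0.589), were at 75.8 CPM against 247 and 57.1 against 220.

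Of 17 cell division genes, 16 were at least 2-fold lower in members than in other somatic cells (median 0.274), beside 6.40% of all genes. Mki67 was at 70.4 CPM against 308 and Top2a at 70.7 against 284. The cyclin-dependent kinase inhibitor Cdkn1b was at 986 CPM against 296 (ratio 3.33), and at 705.5 CPM in Gng13-high cells (ratio 1.40). Relative to Gng13-high cells 3 of 12 division genes were higher (median 1.44), beside 3.03% of all genes. Relative to the 577 with Foxl2 the count was 5 of 12 (median 1.58). However, Mki67 was concentrated in few cells: 8.97% of members had any UMI of it, and 10 cells carried 46.7% of these UMIs. Another inhibitor, Cdkn1c, was at 1004 CPM against 1994 in Gng13-high cells (ratio 0.503).

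**Figure D3:**
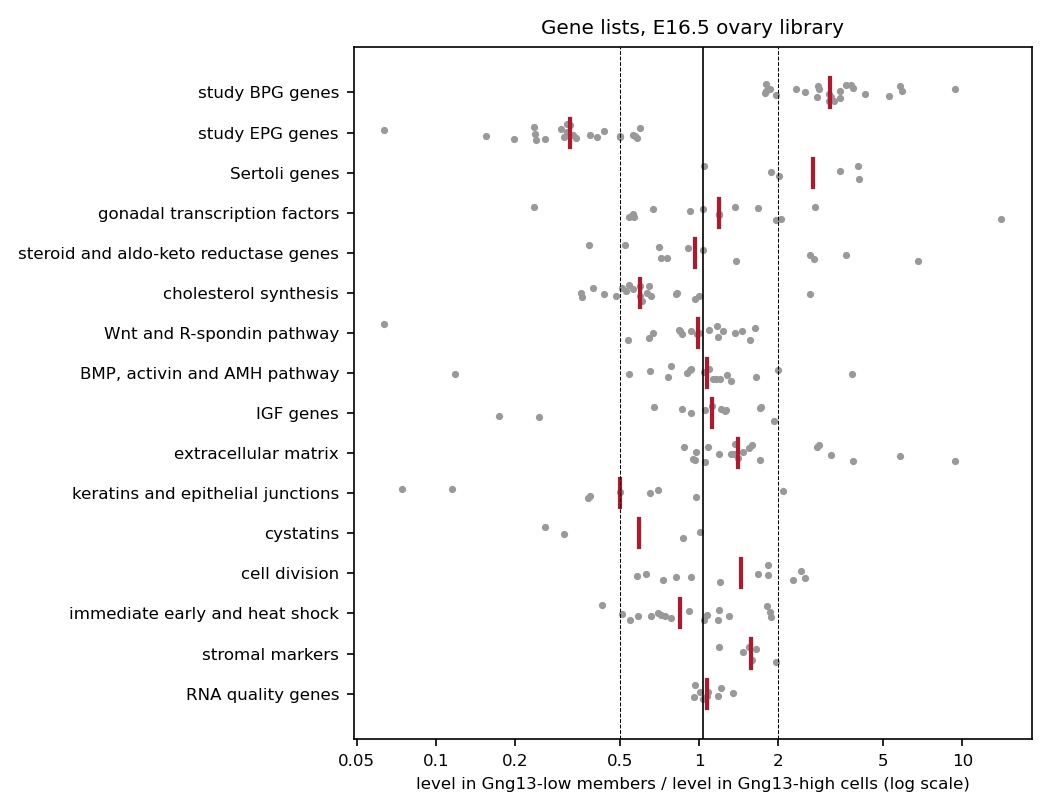
Ratios of the level in Gng13-low members to that in Gng13-high cells (horizontal axis, log scale) for the genes of 16 lists (rows); grey points are genes, red bars list medians, the solid line the median of all genes (1.03) and the dashed lines a 2-fold difference. The study's BPG list (median 3.15) and EPG list (median 0.322) lie on opposite sides.

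Markers of other cell types were measured beside these results. All 8 stromal markers were at least 2-fold lower in members than in other somatic cells (median 0.179), beside 6.40% of all genes. Against Gng13-high cells none of 6 was past 2-fold (median 1.57). That median was 0.372 to 0.426 in clusters 1, 2, 3 and 5 of the members, described below, and 8.48 in cluster 4. It rose when called doublets were left out. The stromal markers summed to 506 CPM in members and 313 in Gng13-high cells, led by Ptn in both. Of the endothelial markers 7 of 7 were lower than in other somatic cells (median 0.0897), summing to 33.7 CPM. Germ cell markers summed to 97.4 CPM, led by the cohesin gene Rec8, and 2 were compared with other somatic cells, neither past 2-fold (median 1.24). Of 4 surface epithelial markers compared with other somatic cells, 2 were lower and 0 higher (median 0.664). That list summed to 1116 CPM in members against 1006, led by Lgals7 at 712 CPM. Of 3 markers of Pax8-positive cells, 2 were lower and 1 higher, Emx2 at 271 CPM against 127. The surface epithelial gene Msln and the rule gene Pax8 were at 0.

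Blood genes were the exception relative to Gng13-high cells. All 6 erythroid genes compared were higher (median 4.39), with Hbb-bs at 3623 CPM against 867, and globin took 0.666% of the members' UMIs. There were 16 members with over 20% globin UMIs, which held 62.4% of the globin UMIs of the group, and without the 26 members that met a blood or endothelial condition the erythroid median was 1.81. Of the immune markers 1 was compared with Gng13-high cells, Lcn2, a neutrophil gene (27.7 CPM against 0.388). In the members 98.8% of the Lcn2 UMIs came from the 10 cells with Tyrobp and Fcer1g counts described above. Immediate early and heat shock genes, which can respond to dissociation, had a median of 0.850 with 1 of 18 lower (0 of 18 against the 577 with Foxl2), and the RNA quality list a median of 1.07 with none past 2-fold. Against other somatic cells the 9 RNA quality genes had ratios of 1.17 to 1.68 (median 1.42). Their part in the other differences was not tested.

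Clustered among themselves, with the genes of the rule and of cell division left out, the members fell into 5 clusters, whose sizes and leading genes are descriptions. Cluster 3, with 380 cells, was led by Thbs1, Ramp1, Tenm4 and Col18a1, and had the highest Akr1c14 (238 CPM) and Nr5a2 (67.0 CPM). Cluster 2, with 399 cells, was led by genes that included Aard (398 CPM), Gstm6 (936 CPM) and Bhlhe41, with Akr1c14 at 115 CPM. Cluster 5, the smallest with 76 cells, was led by the long non-coding RNA Rmst, Cdkn1a, Tbx2 and Gm26700, and had Akr1c14 at 193 CPM and Kitl at 603 CPM. Pax8-positive cells likewise had high Cdkn1a (152 CPM) and Kitl at 572 CPM. In these 3 clusters the study's BPG genes had median ratios to Gng13-high cells of 4.51, 3.28 and 2.96, in that order, and its EPG genes 0.144, 0.205 and 0.168.

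The largest cluster went partly against the label. Cluster 1 held 463 cells, or 32.0% of members, and was led by Cdkn1c, Cst8, Calb1 (97.2 CPM) and Gm2044. Of its leading 12 genes, Cst8, Calb1, Khdrbs3 and Apoc1 are on the study's EPG list. Akr1c14 was at 31.1 CPM, Nr5a2 at 2.42 CPM and Aard at 148 CPM in this cluster, while Lgr5 was at 34.0 CPM, far below the 231 CPM of Gng13-high cells. The BPG genes had a median ratio of 1.54 and the EPG genes of 0.601, so these cells lay between the other members and the Gng13-high cells on both lists, and they are called here only by their leading genes.

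Cluster 4 held 131 cells and was led by S100a9, S100a8, Col1a1 and Col1a2, with globin and division genes among its first 12. It had the deepest median, 18140 UMIs, and Foxl2 at 247 CPM, and 56 of its cells (42.7%) were called doublets by Scrublet, against 3, 3, 1 and 0 cells of clusters 1, 2, 3 and 5. The division genes had a median ratio to Gng13-high cells of 7.10 in cluster 4, and of 0.564, 0.393, 0.394 and 0.412 in clusters 1, 2, 3 and 5. The stromal markers likewise had 8.48 in cluster 4 and 0.372 to 0.426 in the others. In each of the other 4 clusters, then, both medians were below 1, the reverse of those over all members. Leaving out the called doublets from both groups did not bring the pooled medians below 1: they were 1.80 for division genes and 2.78 for stromal markers. The part of doublets in these values was not tested further.

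**Figure D4:**
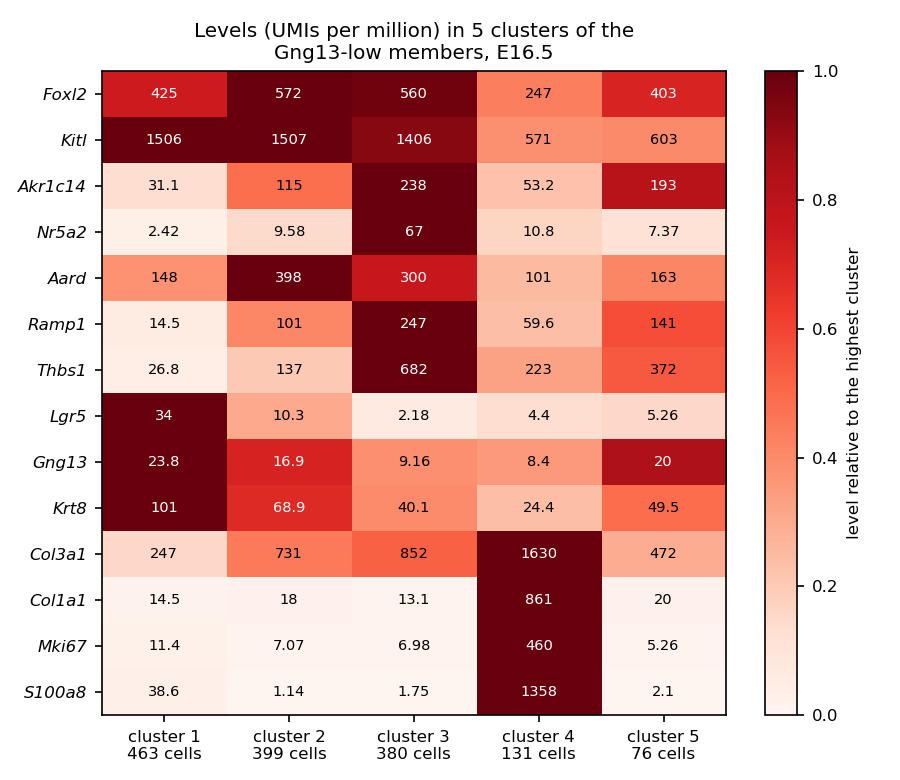
Levels of 14 genes (rows) in the 5 clusters of members (columns), printed in CPM; the shade gives the level relative to the cluster where the gene is highest. Akr1c14, Nr5a2, Ramp1 and Thbs1 peak in cluster 3, Lgr5 and Krt8 in cluster 1, and Col1a1, Mki67 and S100a8 in cluster 4.

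The marker levels were graded across the cut-offs that chose the members. Of otherwise eligible cells, the 247 with 1 Foxl2 UMI had Akr1c14 at 56.5 CPM, the 191 just inside with 2 had 69.2 CPM, and the 1051 with 4 or more had 126 CPM, whereas the 671 with none had 12.4 CPM. Nr5a2 in the same 4 sets was at 17.5, 13.5, 22.99 and 10.2 CPM, so it was not lower just outside the Foxl2 limit than just inside. For Gng13, the 1155 members with none had Akr1c14 at 124 CPM and Lgr5 at 11.8 CPM, and the 294 with 1 UMI had 81.5 and 25.5 CPM. Just outside, the 129 cells with 2 Gng13 UMIs had Akr1c14 at 67.0 CPM and Lgr5 at 67.0 CPM. The 57 members with only 2 or 3 UMIs of Wnt6 and Kitl had Akr1c14 at 30.2 CPM, Aard at 24.97 CPM and Col3a1 at 1954 CPM, like the 56 cells just outside with 27.7, 14.6 and 2202 CPM. Just outside the Pax8 limit, the 88 cells with 1 Pax8 UMI had Akr1c14 at 130 CPM, Nr5a2 at 7.39 CPM and Aard at 94.5 CPM. Akr1c14 thus changed little across the Foxl2 and Gng13 limits. Just past the Gng13 limit Lgr5 was clearly higher and the sparse Nr5a2 lower, and Aard was lower just outside the Foxl2 limit. Members poor in Wnt6 and Kitl resembled the cells left out.

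The same cut-offs were applied to the other libraries, where they had not been set. The E11.5 library gave 1 cell and the E12.5 library 160; the later libraries, in order of age and leaving out E16.5, gave 178, 275, 640 and 1261, or 0.0126%, 4.07%, 2.47%, 9.27%, 13.4% and 24.0% of somatic cells in the same order. The Gng13-high cells, in that order, numbered 21, 529, 2775, 781, 466 and 267. The median members had 5994 UMIs at E14.5 and 11825 at E16.5, so a fixed UMI count is a different limit in each library.

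Akr1c14 stood at 33.4 CPM in Gng13-low cells and 7.23 CPM in Gng13-high cells at E12.5, 74.4 and 10.3 at E14.5, 115 and 16.9 at E16.5, 284 and 38.2 at E18.5, 246 and 31.5 at P1, and 181 and 81.1 at P5. It was higher in the Gng13-low cells in all 6 ovary libraries, and their intervals did not overlap in any. Nr5a2 had no UMI in the Gng13-low cells at E12.5, where 3 UMIs would be 1.57 CPM, and was then at 4.75, 21.8, 26.2, 32.2 and 86.7 CPM in the 5 older libraries in order of age. The Nr5a2 ratio to Gng13-high cells lay between 5.71 at P5 and 14.04 at E16.5 in those 5 libraries. Lgr5 went the other way, from 25.1 CPM at E12.5 to 2.61 CPM at P5 in Gng13-low cells, with its lowest ratio, 0.0277, at P5.

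**Figure D5:**
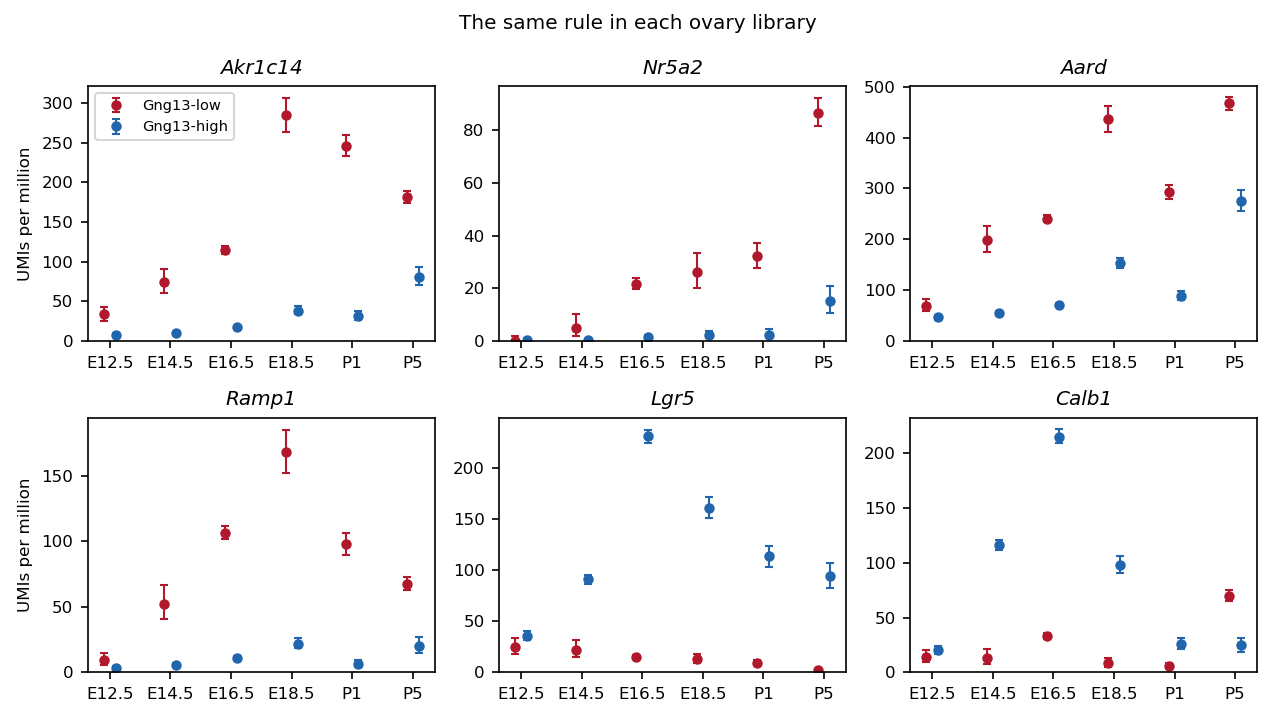
Levels of 6 genes in CPM (vertical axis, linear, from 0) in Gng13-low (red) and Gng13-high cells (blue) of each ovary library (horizontal axis, 1 library per age), with 95% Poisson intervals. Akr1c14, Aard and Ramp1 are higher in Gng13-low cells at each age, and Calb1 is lower except at P5.

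The genes that set the members apart at E16.5 mostly kept their direction elsewhere. Leaving out the neutrophil genes, which had as few as 0 UMIs in some libraries, Ramp1, Thbs1, Akr1c14 and Tdrd5 were higher in Gng13-low cells in all 5 other ovary libraries, with ratios from 1.53 to 14.99. Of the 10 lowest genes, 8 were lower in all 5, and the exceptions were Svs5 and Calb1. Among genes with at least 10 UMIs in each of these libraries, 170 of 247 that were at least 2-fold higher at E16.5 were above 1 in all 5 (68.8%, against 14.4% of all 8930 genes). Of 181 lower ones, 105 were below 1 in all 5 (58.0%, against 6.42%). The other libraries were split on the same 2 genes, so these counts describe the split and not ages as replicates.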

How the data were processed

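The deposited matrices hold UMI counts per gene and cell, whole and not normalized, which the authors made with Cell Ranger against mm10; the labels state v2 chemistry for all libraries, but the E16.5 barcodes start differently (0 and 11 with the 2 starts compared, against 7 to 25 and 0 elsewhere), so the chemistry of this library is in doubt. Names were kept as deposited, and 30934 of 31053 genes matched GENCODE vM21 (mm10). The members, gene lists and comparison classes were chosen with earlier results of these data known. UMIs were summed over the cells of a class and scaled to 1000000 UMIs (CPM). Genes with a mean of at least 10 CPM over both groups, outside the rule, were compared, so a gene low in 1 group could enter through the other; a group under 3 UMIs was put at 3. Intervals are exact Poisson (levels), exact binomial (shares) and exact binomial conditional on the summed UMIs (ratios). The ratio procedure was tested on simulated data. Named were the markers, the 10 highest and 10 lowest ratios among genes with at least 50 CPM in the higher group, and list genes with extreme ratios or at least 100 CPM. Some genes that met this rule are not reported here. A few genes beside these (such as Dmrt1, Amh, Cyp11a1, Rspo1 and Nr5a1) were named after their values were seen. Clustering used 2000 variable genes, 10 principal components, 30 neighbours and Leiden (igraph 0.11.9) at resolution 0.6; doublets were called with Scrublet in Scanpy 1.11.5 in cells of at least 200 genes, and were kept in the main values. Statistics used SciPy 1.17.1. No germ cell was compared.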

Additional observations from a re-analysis of the deposited data

Results flagged for a closer look

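Svs5 and Calb1, both far lower in Gng13-low than in Gng13-high cells at E16.5 (ratios 0.0515 and 0.156), had ratios above 2 in 1 other library each, and this difference between libraries was not tested. For Svs5 the ratio at E12.5 was 2.45 (0.870 to 6.53), on 8 UMIs in Gng13-low and 12 in Gng13-high cells. For Calb1 the ratio at P5 was 2.82 (2.18 to 3.72), on 830 and 62 UMIs, with 70.0 CPM in Gng13-low and 24.8 CPM in Gng13-high cells; at P1 it was still 0.231 (0.151 to 0.345).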

How the results depend on the processing

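No paired analysis was possible because each age had 1 library. The 1449 members became 345 when cells over 10% mitochondrial UMIs were left out, and 2367 with Foxl2 left free, a choice made after seeing the data, as was leaving out blood-like members. The 913 genes past 2-fold against other somatic cells became 2423 at a minimum of 1 CPM, 242 at 50 CPM and 342 with Foxl2 free; the 460 against Gng13-high cells became 1353, 132 and 769, 691 when Gng13-high cells were held to 1 Foxl2 UMI at most and 301 when held to at least 2, as the members were, again a choice made after seeing the data. Higher genes were 35.4% of the 913, 27.4% at 1 CPM and also after dividing by the median ratio, 48.3% at 10% mitochondrial UMIs, 50.8% at 50 CPM and 55.9% with Foxl2 free. The Akr1c14 ratio of 6.78 was 11.53 against cells with 4 or more Gng13 UMIs, 19.1 against those with at most 1 Foxl2 UMI, 3.59 against those with at least 2, 8.06 after thinning, 5.46 with 5 CPM added and 4.65 with Foxl2 free. Dividing by the median ratio (1.08 and 1.03) gave 926 and 454 genes and an Akr1c14 ratio of 6.56. The other 45 values of these 4 results stayed within 1.5 times the count or inside the interval. The direction turned only for neutrophil genes: Ngp against other somatic cells (2.33) was 0.662 after thinning, 0.733 with cells weighted equally and 0.0159 without blood-like members, where S100a8 and Stfa1 against Gng13-high cells were 0.961 and 0.584. Without called doublets Col3a1 against Gng13-high cells was 6.01 in place of 3.83 and the stromal median 2.78 in place of 1.57. The median member had 1 UMI of Akr1c14 and 0 of Nr5a2, which limits statements on single cells.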

Other observations

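Several genes that the comparisons above did not single out were high in 1 cluster of the Gng13-low cells. Akr1c18, which inactivates progesterone, was at 80.0 CPM in the 76 cells of cluster 5 and 8.23 CPM in the other members, and the BMP receptor gene Bmpr1b at 84.2 and 8.23 CPM. Pax8-positive cells had 28.8 CPM of Akr1c18 and 76.3 CPM of Bmpr1b, so neither gene was limited to that cluster. Prlr, the prolactin receptor, was at 78.2 CPM in cluster 1 and 7.09 CPM in the others. These genes were named after their values were seen, and the clusters were made from the same cells.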
